A study of Mus musculus with 22 samples.

Results

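The genes of the Fas and TNF death receptors were followed in RNA from whole mouse testes with and without the transcription factor MLX. The genes were chosen by symbol: the ligands Fasl and Tnf, the receptors Fas, Tnfrsf1a, Tnfrsf1b and Tnfrsf10b, the adaptors Tradd and Fadd, the kinase Ripk1 and the inhibitor Cflar. All 10 had a row among the 17931 gene symbols of the table. MLX (MAX-like protein X) is a basic helix-loop-helix leucine zipper protein that dimerizes with nutrient-sensing partners and binds DNA. The question was how the testis transcriptome differed between wild-type (WT) males and males without MLX (MLX KO). There were 3 WT and 3 MLX KO libraries, all from males aged 7 months that received no treatment. The WT males were proven fertile breeders, and each MLX KO male was an age-matched littermate of a WT male. The MLX KO males lacked Mlx in the whole body, so their germ cells, their somatic testis cells and the rest of the animal shared the deletion. The allele was made in 129S4 embryonic stem cells, and exons 3 to 6, which encode the DNA-binding and dimerization domain, were removed with a Meox2-Cre deleter that was later bred out.

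Total counts ran from 16674678 to 19742726 per library. The Mlx row held 96 to 128 counts in the WT libraries and 94 to 109 in the libraries labelled MLX KO. Since a count over the whole gene includes the exons that were kept, Mlx did not check the genotype labels. Levels are in CPM, the reads of a gene relative to a library total scaled by the trimmed mean of M values. Changes are log2 fold changes of MLX KO over WT testes with their standard error (SE), from the quasi-likelihood test of edgeR, adjusted by Benjamini-Hochberg over the 14640 genes that passed a filter on low counts. Adjusted p-values under 0.05 are called past the threshold. By this rule 24.8% of all genes tested were higher in MLX KO testes and 20.6% were lower. The 3 MLX KO values lay above all 3 WT values for 30.3% of genes tested, and below them for 25.9%. The transcripts of whole testes were measured together, so fewer cells of a type and less RNA per cell cannot be told apart.

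Death receptors are membrane proteins with a cytoplasmic death domain. When FAS binds FAS ligand it recruits the adaptor FADD and the protease caspase-8, which starts apoptosis, while CFLAR (c-FLIP) competes with caspase-8 in that complex. TNFR1 first assembles TRADD and RIPK1 into a membrane complex that activates NF-κB, and can later form a cytoplasmic complex that kills the cell by apoptosis or necroptosis. In the testis, FAS ligand and FAS have long been studied in the removal of germ cells after injury to Sertoli cells, which nurse the germ cells.

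Of the 10 genes, 9 were tested. Fas, Tnfrsf1a, Tnfrsf1b, Ripk1 and Cflar rose in MLX KO testes, 0 fell, and Fasl, Tnfrsf10b, Tradd and Fadd did not pass the threshold. Tnf was too low to be tested. Fas passed the filter through its MLX KO libraries alone, since 0 of 3 WT libraries and 3 of 3 MLX KO libraries reached the required 0.55 CPM. Among the 8 genes that reached it in every library, 4 were higher (50.0%), beside 24.8% of all genes tested, and 0 were lower, beside 20.6%. Their median log2 fold change was 0.29, and that of all genes tested was 0.03. For 6 of the 10 genes the 3 MLX KO values lay above all WT values, beside 30.3% of all genes tested. For 1 (Fasl) they lay below, beside 25.9%, and for 3 (Tnf, Tnfrsf10b and Tradd) the groups overlapped. The 6 include Fas, and the 10 include Tnf, which was not tested.

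**Figure D1:**
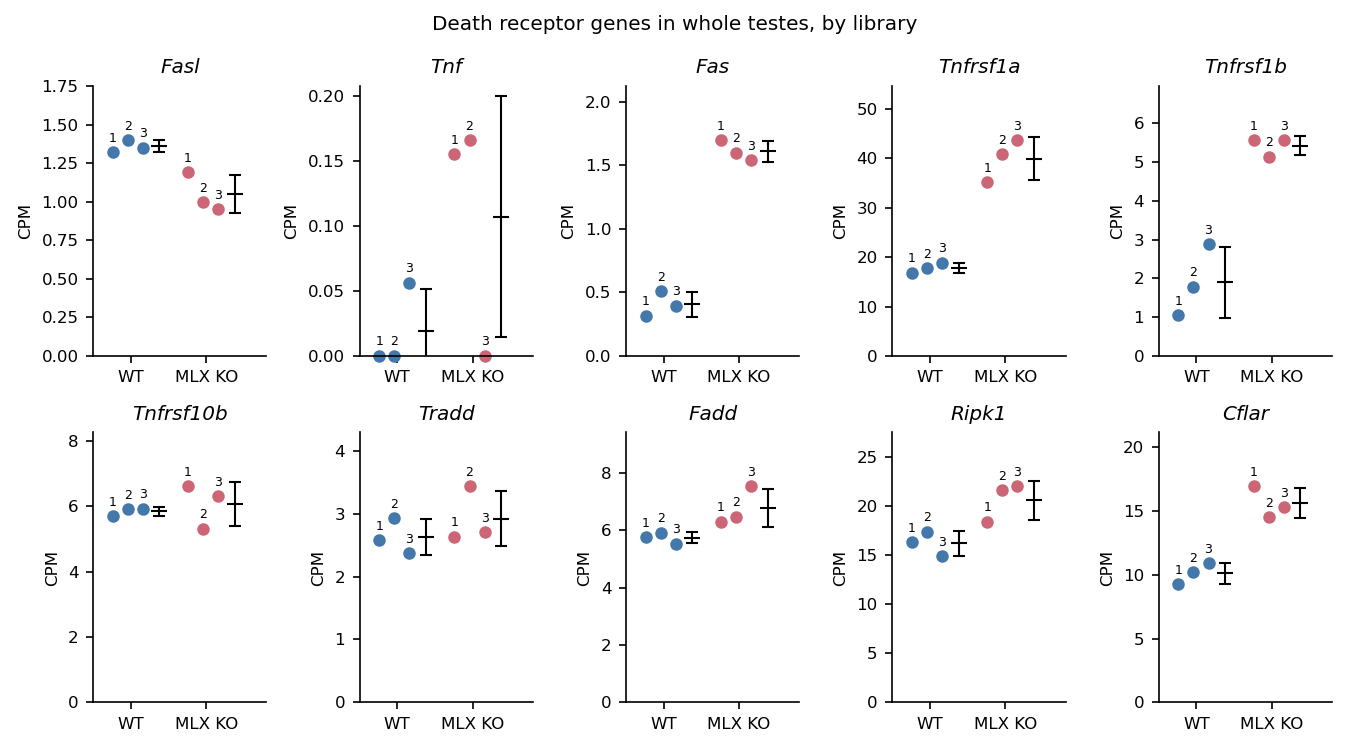
CPM of the 10 genes in each library, with a linear axis from 0 in every panel and a separate scale for each gene. Points are libraries, numbered by replicate, WT in blue and MLX KO in red. The bars to their right are the mean ± SD of 3 libraries, with that of Tnf in WT cut at 0. Fas, Tnfrsf1a, Tnfrsf1b, Fadd, Ripk1 and Cflar have their 3 MLX KO points above all WT points, Fasl has them below, and Tnf stays under 0.2 CPM.

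The sequence before the start site of Fas is shown because Fas had the highest log2 fold change among the 10 genes. It is from RefSeq (GRCm38.p6, the patched release of mm10), covers chr19:34290409-34290646 on the plus strand, and is written 5′ to 3′, ending at the base before the annotated gene. Capitals mark the E-box CACGTG, the core element bound by MLX and its relatives.
Fas: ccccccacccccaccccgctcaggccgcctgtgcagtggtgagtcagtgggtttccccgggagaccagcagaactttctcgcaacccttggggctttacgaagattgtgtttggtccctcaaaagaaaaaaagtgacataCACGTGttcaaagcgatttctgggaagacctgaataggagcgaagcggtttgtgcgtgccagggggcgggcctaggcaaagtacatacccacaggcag
RefSeq gave a start site with sequence for 8 of the 10 genes, 9 sites in all since Ripk1 had 2. In the 250 bases upstream of each, read on both strands, CACGTG was found at 1 site, that of Fas, where it began 110 bases before the start site used, which lies 12 bases inside the annotated gene. The same letters were present at 6.02% of the 32851 mouse start sites in the table. The NF-κB consensus was found at 0 of the 9 sites and at 5.93% of all. These are matches of letters in a window. Whether any factor bound there was not tested here. The same study holds chromatin immunoprecipitation of MLX and MAX from WT and MLX KO testes, which was not analysed.

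The ligands were low in both groups. Fasl, which encodes FAS ligand, had 25, 22 and 24 counts in the WT libraries and 23, 18 and 18 in the MLX KO libraries. The corresponding levels were 1.36 ± 0.0406 CPM (SD, n = 3) in WT and 1.05 ± 0.124 CPM (SD, n = 3) in MLX KO testes. All 3 MLX KO levels were below the lowest WT level, but the gap was small. The fitted log2 fold change was −0.37 (SE 0.24, 95% interval −0.91 to 0.16, edgeR adjusted p = 0.234), so a difference was not detectable at this depth. Fasl (chr1:161780691-161788495) lies on the minus strand.

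FAS ligand is made by cytotoxic lymphocytes as well as in the testis. Of 11 T and NK cell markers, 3 had enough counts to be tested and 0 passed the threshold. Their summed level was 3.43 to 6.09 CPM in WT and 3.32 to 7.84 CPM in MLX KO testes. The granule genes Gzmb and Prf1 and the NK receptor gene Ncr1 were at 0 in all 3 WT libraries. In the MLX KO libraries Gzmb had 6, 2 and 0 counts, Prf1 had 1, 0 and 0, and Ncr1 had 1, 1 and 0. Cd8a had 28 counts in MLX KO replicate 1 and 2 to 5 in every other library. Cd3d, a subunit of the T cell receptor complex, had the most counts of the list.

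Tnf encodes the inflammatory cytokine TNF. It had 0, 0 and 1 counts in the WT libraries and 3, 3 and 0 counts in the MLX KO libraries. Every library was at or under 3 counts, so Tnf was not detectable above that limit in either group and no fold is given.

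Fas had the highest fold change of the 10 genes. It encodes the receptor for FAS ligand and lies at chr19:34290647-34327775 on the plus strand, with 13 blocks of exon sequence. The WT libraries held 6, 8 and 7 counts and the MLX KO libraries 33, 29 and 29. The lowest MLX KO library thus had more than 3 times the reads of the highest WT library, at similar depth. In CPM the WT values were 0.316, 0.509 and 0.395 and the MLX KO values 1.70, 1.60 and 1.54. The mean rose from 0.407 ± 0.0967 to 1.61 ± 0.0839 CPM (SD, n = 3 each). The log2 fold change was 1.99 (SE 0.29, 95% interval 1.34 to 2.64, edgeR adjusted p = 0.000341), a 3.97-fold increase. By log2 fold change Fas ranked 84 of 14640 genes, so 0.574% of genes had a change as high or higher. The increase was seen in 3 of 3 littermate pairs. The fold rests on WT counts of at most 8 reads, and without any filter on low counts it was 1.99 on the log2 scale.

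Tnfrsf1a, which encodes TNFR1, the death domain receptor for TNF, was the most abundant receptor of the set. It had 318, 280 and 335 counts across WT and 680, 738 and 825 counts in MLX KO testes. The groups were far apart, with the lowest MLX KO count above 2 times the highest WT count. The level rose from 17.8 ± 1.06 to 39.9 ± 4.38 CPM (SD, n = 3 each). The log2 fold change was 1.16 (SE 0.09, 95% interval 0.96 to 1.36, edgeR adjusted p = 7.98e-06), or 2.24-fold. This was the most precise estimate among the 10 genes, and 4.09% of genes tested had a log2 fold change as high or higher. Tnfrsf1a lies at chr6:125349723-125362483 on the plus strand.

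Tnfrsf1b encodes TNFR2, a TNF receptor without a death domain that signals through TRAF proteins. The WT libraries differed among themselves, with 20, 28 and 51 counts, and the MLX KO libraries had 108, 93 and 105. The groups did not overlap, and the spread lay almost wholly on the WT side. The level rose from 1.90 ± 0.917 to 5.42 ± 0.243 CPM (SD, n = 3 each). The log2 fold change was 1.52 (SE 0.26, 95% interval 0.93 to 2.10, edgeR adjusted p = 0.000942), or 2.86-fold. It moved to 1.95 without WT replicate 3 and to 1.20 without WT replicate 1, and passed the threshold in both fits. Tnfrsf1b lies at chr4:145212368-145246870 on the minus strand.

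Tnfrsf10b encodes the mouse receptor for TRAIL, a TNF family ligand that also triggers caspase-8. Its counts were 108, 93 and 105 across WT and 128, 96 and 119 in MLX KO libraries. The groups overlapped. The levels were 5.84 ± 0.129 and 6.07 ± 0.676 CPM (SD, n = 3 each), and the log2 fold change was 0.06 (SE 0.13, 95% interval −0.23 to 0.35, edgeR adjusted p = 0.747). The upper end of that interval lies below the lower ends for Fas, Tnfrsf1a and Tnfrsf1b, and the difference between the receptors was not itself tested. Tnfrsf10b lies at chr14:69767472-69784411 on the plus strand.

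**Figure D2:**
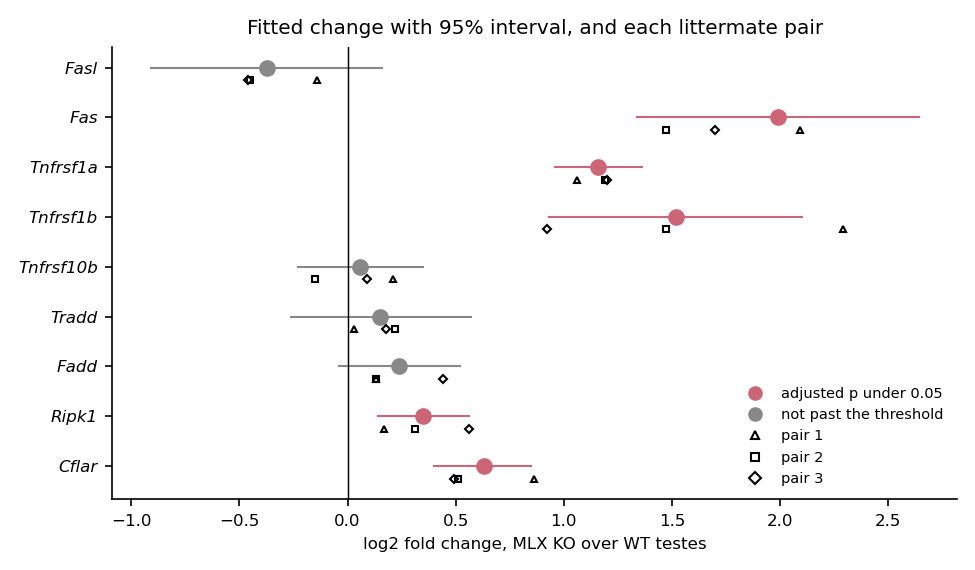
Log2 fold change of MLX KO over WT testes for the 9 genes tested, as large points with 95% intervals from edgeR, red where the adjusted p was under 0.05 and grey otherwise. Small open symbols are the differences of log2 CPM within each of the 3 littermate pairs, computed with a prior count of 2, which pulls the pairs of low genes towards 0. Fas, Tnfrsf1a and Tnfrsf1b lie farthest to the right, and the 3 pairs of Fasl lie below 0.

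Of the adaptors and the kinase below the receptors, Ripk1 alone passed the threshold. Tradd, the adaptor that links TNFR1 to RIPK1 and TRAF2, had 49, 46 and 42 counts across WT and 51, 62 and 51 counts in MLX KO libraries. The levels of 2.63 ± 0.281 and 2.92 ± 0.443 CPM (SD, n = 3 each) overlapped between the groups. The log2 fold change was 0.15 (SE 0.19, 95% interval −0.26 to 0.57, edgeR adjusted p = 0.536). Tradd lies at chr8:105258575-105264594 on the minus strand.

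Fadd, the adaptor that brings caspase-8 to FAS, had 109, 93 and 98 counts across WT and 122, 117 and 142 in MLX KO libraries. The MLX KO levels lay above the WT levels in all 3 libraries, by little in 2 of them. The means were 5.73 ± 0.195 and 6.76 ± 0.661 CPM (SD, n = 3 each). The log2 fold change of 0.24 (SE 0.13, 95% interval −0.04 to 0.52, edgeR adjusted p = 0.146) did not pass the threshold. With library sizes as the only scaling it was 0.38 and passed (adjusted p = 0.0388), a scaling that moved the median of all genes by 0.14. Fadd lies at chr7:144578323-144582441 on the minus strand.

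Ripk1, the kinase that TNFR1 uses for NF-κB activation and for cell death, had 310, 273 and 264 counts across WT and 356, 390 and 415 in MLX KO libraries. The groups did not overlap, though the lowest MLX KO level was close to the highest WT level. The level rose from 16.2 ± 1.24 to 20.6 ± 1.98 CPM (SD, n = 3 each), a log2 fold change of 0.35 (SE 0.10, 95% interval 0.14 to 0.56, edgeR adjusted p = 0.012). The call was lost without WT replicate 3 (log2 fold change 0.29, adjusted p = 0.0513). With the replicate block it held in edgeR (adjusted p = 0.00758) and was lost in DESeq2 (log2 fold change 0.32, adjusted p = 0.0946). Ripk1 (chr13:34002225-34035170, plus strand) shares 241 bases of exon sequence with Serpinb6a on the opposite strand. Without a known strand setting the reads there cannot be told apart, and Serpinb6a had 2778 to 3376 counts per library with a log2 fold change of −0.03 (edgeR adjusted p = 0.673).

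Cflar, the caspase-8-like inhibitor, had 175, 160 and 193 counts across WT and 327, 263 and 289 in MLX KO libraries. All MLX KO values lay above all WT values with a clear gap. The level rose from 10.1 ± 0.831 to 15.6 ± 1.18 CPM (SD, n = 3 each), with a log2 fold change of 0.63 (SE 0.10, 95% interval 0.40 to 0.85, edgeR adjusted p = 0.000622), or 1.54-fold. The inhibitor changed in the same direction as Fas. Cflar lies at chr1:58711311-58758884 on the plus strand.

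Levels were also compared between genes per length of exon sequence, in CPM per kb. In WT testes Tnfrsf1a was highest at 8.27 ± 0.493 and Ripk1 was next at 3.07 ± 0.235 (SD, n = 3 each). Fadd, Tradd and Tnfrsf10b followed at 1.99, 1.90 and 1.84 CPM per kb, and neighbours among them overlapped. Cflar was at 1.11 ± 0.0911, Fasl at 0.701 ± 0.021, Tnfrsf1b at 0.387 ± 0.187 and Fas at 0.175 ± 0.0415, the last pair overlapping, and Tnf was lowest at 0.0114. Per kb, the ligand gene Fasl stood above the receptor gene Fas in every WT library. In MLX KO testes the first 6 places were the same, with Tnfrsf1a at 18.5 ± 2.03, Ripk1 at 3.91 ± 0.374, Fadd at 2.35, Tradd at 2.11, Tnfrsf10b at 1.91 and Cflar at 1.71 CPM per kb, and neighbours from Fadd to Cflar overlapped. Tnfrsf1b at 1.10 ± 0.0494 and Fas at 0.693 ± 0.036 CPM per kb both stood above Fasl at 0.540 ± 0.0642, with no overlap. Fas and Fasl had changed places.

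Ratios of counts within a library, which do not depend on library scaling, were compared for 6 pairs of genes by exact two-sided permutation tests. With 3 against 3 libraries the smallest p such a test can give is 0.1, so none could pass 0.05. The log2 ratio of Fas to Fasl was −1.97, −1.40 and −1.71 across WT and 0.51, 0.67 and 0.67 in MLX KO libraries. The sign changed between the groups, and the difference of the means was 2.31 (exact p = 0.1, adjusted p = 0.15 over 6 ratios). The log2 ratio of Fas to Cflar, receptor to inhibitor, was −4.75, −4.24 and −4.69 across WT and −3.29, −3.16 and −3.29 in MLX KO libraries, a difference of 1.31 (exact p = 0.1, adjusted p = 0.15). Fas had more reads relative to both Fasl and Cflar in every MLX KO library than in any WT library. These 2 ratios restate the changes of the single genes. They rest on 6, 8 and 7 Fas counts in the WT libraries, where Fas did not reach the filter.

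Cflar was also set against Casp8, which encodes the protease it competes with. The log2 ratio of Cflar to Casp8 was 1.51, 2.02 and 2.19 across WT and 1.10, 0.83 and 0.80 in MLX KO libraries, a difference of −1.0 (exact p = 0.1, adjusted p = 0.15). The log2 ratio of Fadd to Cflar averaged −0.81 ± 0.15 in WT and −1.20 ± 0.20 in MLX KO testes (SD, n = 3 each), a difference of −0.39 (exact p = 0.1, adjusted p = 0.15). In both ratios all MLX KO values were below all WT values. Those of Tnfrsf1b to Tnfrsf1a and of Ripk1 to Tradd overlapped between the groups, with differences of 0.45 (exact p = 0.3, adjusted p = 0.30) and 0.20 (exact p = 0.2, adjusted p = 0.24).

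**Figure D3:**
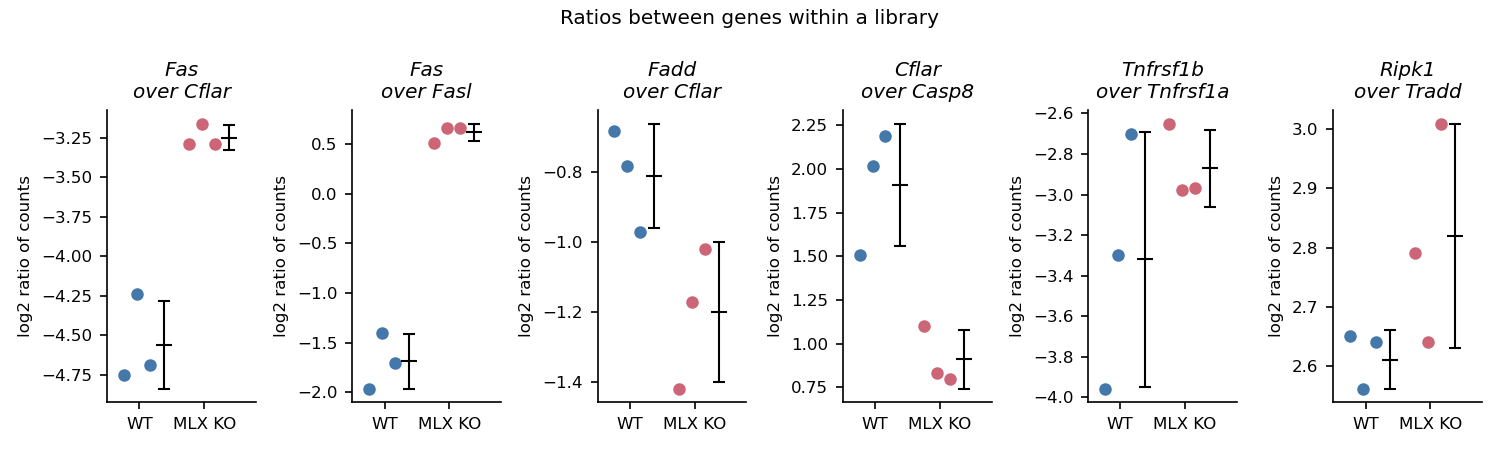
Log2 ratio of counts for 6 pairs of genes within each library, with WT in blue and MLX KO in red. The bars to the right of the points are the mean ± SD of 3 libraries, and each panel has its own axis, which does not start at 0. The ratios of Fas to Cflar and of Fas to Fasl are higher in the MLX KO libraries, those of Fadd to Cflar and of Cflar to Casp8 are lower, and the 2 others overlap.

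The other genes of the pathway were taken from 9 lists with 79 genes, of which 66 were tested. Of these 29 were higher (43.9%) and 3 were lower (4.55%) in MLX KO testes, beside 24.8% and 20.6% of all genes tested, and the median log2 fold change was 0.26. Of the 66, 5 were under 0.55 CPM in at least 1 library. Among the 61 others, 27 were higher and 3 were lower. The counts of single lists below are read beside the same shares of all genes tested.

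Among 6 other ligands, 3 were tested and 1 rose. Tnfsf12, which encodes the ligand TWEAK, had 25, 19 and 20 counts across WT and 52, 73 and 43 in MLX KO libraries, with a log2 fold change of 1.29 (SE 0.26, edgeR adjusted p = 0.00224). Lta and Tnfsf14, which encode lymphotoxin-α and LIGHT, stayed at or under 3 counts in every WT library and reached at most 4 in an MLX KO library. Tnfsf10, the TRAIL gene, and Tnfsf15 were tested and did not pass the threshold, but Tnfsf10 did so without MLX KO replicate 2 (log2 fold change 1.10, edgeR adjusted p = 0.0371).

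Of 10 other death and decoy receptors, 6 were tested, of which 3 rose and 1 fell. Tnfrsf12a encodes FN14, the receptor of TWEAK. Its counts went from 17, 21 and 18 in WT to 117, 156 and 150 in MLX KO libraries, a log2 fold change of 2.80 (SE 0.21, 95% interval 2.33 to 3.28, edgeR adjusted p = 6.82e-06). The estimate lay above that of Fas, with overlapping intervals. Tnfrsf21, which encodes the death domain receptor DR6, rose by 1.11 on the log2 scale (edgeR adjusted p = 1.93e-05). Eda2r, an ectodysplasin receptor gene, rose by 1.30 (edgeR adjusted p = 0.00592), which DESeq2 with the replicate block did not call (adjusted p = 0.0656). Ngfr, which encodes the p75 neurotrophin receptor, fell by 0.21 on the log2 scale (edgeR adjusted p = 0.0443), a call that was lost in 9 of 14 alternative settings. Tnfrsf26, a decoy receptor gene, had 0, 0 and 2 counts across WT and 2, 5 and 0 in MLX KO libraries.

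In the caspase and mitochondrial arm all 11 genes were tested, of which 5 rose and 1 fell. Casp8 had the largest change of this arm. It had 61, 39 and 42 counts across WT and 152, 148 and 166 in MLX KO libraries, so that the groups were well apart. The log2 fold change was 1.61 (SE 0.15, edgeR adjusted p = 2.30e-05), or 3.06-fold. Bid, which carries the caspase-8 signal to mitochondria, rose by 0.58 (edgeR adjusted p = 0.00794), and Cycs, the somatic cytochrome c gene, by 0.50 (edgeR adjusted p = 0.000281). DESeq2 with the replicate block did not call Bid (adjusted p = 0.101). Casp6, another caspase gene, rose by 0.39 on the log2 scale (edgeR adjusted p = 0.00442, DESeq2 with the replicate block adjusted p = 0.105). Diablo, whose product blocks inhibitor of apoptosis proteins, fell by 0.19 (edgeR adjusted p = 0.00398), a call lost with library sizes as the only scaling (adjusted p = 0.202).

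TNFR1 complex I, the membrane complex that signals to NF-κB, had 15 genes tested, of which 5 rose and 1 fell, with a median of 0.08. Of all genes tested 24.8% were higher and 20.6% lower, with a median of 0.03. Birc3, which encodes the ubiquitin ligase cIAP2, rose by 1.12 on the log2 scale (edgeR adjusted p = 7.97e-05). Ikbkg (NEMO) rose by 0.57 (edgeR adjusted p = 0.00134) and Tab3, a ubiquitin reader of the TAK1 kinase complex, by 0.46 (edgeR adjusted p = 0.000705). Traf1, which encodes a TRAF protein recruited by TNFR2, fell by 1.05 (edgeR adjusted p = 0.00116), from 142, 112 and 165 to 56, 68 and 93 counts. The remaining 9 genes, among them those of the linear ubiquitin ligase (Rnf31, Rbck1 and Sharpin), did not pass the threshold.

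Of the 6 ubiquitin editors and brakes, 3 rose. Tnip1, which encodes an A20-binding inhibitor of NF-κB, rose by 0.91 on the log2 scale (edgeR adjusted p = 4.07e-05), Xiap, a direct caspase inhibitor gene, by 0.68 (edgeR adjusted p = 0.000162), and Spata2, which links the deubiquitinase CYLD to the TNFR1 complex, by 0.21 (edgeR adjusted p = 0.0285). The Spata2 call was lost in 7 of 14 alternative settings. Neither necroptosis gene that was tested passed the threshold. Ripk3, the necroptosis kinase, had 67, 56 and 66 counts across WT and 64, 87 and 73 in MLX KO libraries (log2 fold change 0.14, 95% interval −0.24 to 0.53, edgeR adjusted p = 0.527). Mlkl, its pore-forming substrate, had 184, 130 and 181 counts and 173, 169 and 121 counts (log2 fold change −0.19, 95% interval −0.53 to 0.14, edgeR adjusted p = 0.315). Both overlapped between the groups.

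Of 10 modulators of FAS and TNFR1, all tested, 3 rose, near the share of 24.8% of all genes tested. They were Faim2 (1.17 on the log2 scale, edgeR adjusted p = 0.0179), Pea15a (0.64, edgeR adjusted p = 0.0007) and Ptpn13 (0.27, edgeR adjusted p = 0.00873), all 3 of which encode proteins known to restrain FAS signalling. DESeq2 with the replicate block did not call Ptpn13 (adjusted p = 0.0953). The other 7 did not pass the threshold, among them Faim (0.26, edgeR adjusted p = 0.0892) and Bag4 (0.01, edgeR adjusted p = 0.904). Faim2 passed the filter through its MLX KO libraries alone, with 5 to 9 counts across WT and 14 to 20 in MLX KO libraries, and its call was lost in 5 of 14 alternative settings. Of 5 tested genes for the proteases that shed ligands and receptors from the membrane and for their regulators, 4 rose. Adam10, the protease that releases FAS ligand, rose by 0.79 on the log2 scale (edgeR adjusted p = 2.15e-05). Rhbdf1 and Rhbdf2, cofactors of the TNF sheddase, rose by 0.94 and 0.86 (edgeR adjusted p = 0.0087 and 0.000242), and Timp3, its inhibitor, rose by 0.71 (edgeR adjusted p = 8.64e-06). The gene of the sheddase itself, Adam17, did not pass the threshold (0.14, edgeR adjusted p = 0.139), and its groups overlapped. Mmp7, the matrilysin gene, was at 0 in all WT libraries and had at most 1 count in an MLX KO library.

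Of 12 transcripts that TNF is known to induce, 8 were tested and 5 rose, with a median of 0.83. Of all genes tested 24.8% were higher, with a median of 0.03. Lcn2 (lipocalin-2) went from 1338, 1576 and 2189 to 9856, 13245 and 13846 counts, a log2 fold change of 2.75 (SE 0.19, edgeR adjusted p = 3.32e-06). The adhesion molecule genes Icam1 and Vcam1 rose by 1.64 (edgeR adjusted p = 3.77e-05) and 1.54 (edgeR adjusted p = 7.98e-06) on the log2 scale. Tnfaip6 rose by 0.93 (edgeR adjusted p = 0.0183), a call lost in 4 of 14 alternative settings: DESeq2 without (adjusted p = 0.077) and with the replicate block (0.17), and edgeR without MLX KO replicate 2 (0.0563) or WT replicate 1 (0.0795). Nfkbia, the inhibitor of NF-κB, was the remaining increase. Ccl2 and Cxcl1, chemokine genes, stayed at or under 3 counts in every WT library, and Il6 did so in all 6 libraries. Sod2, Tnfaip2 and Ccl5 did not pass the threshold, and Tnf itself was at or under 3 counts in the same libraries.

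**Figure D4:**
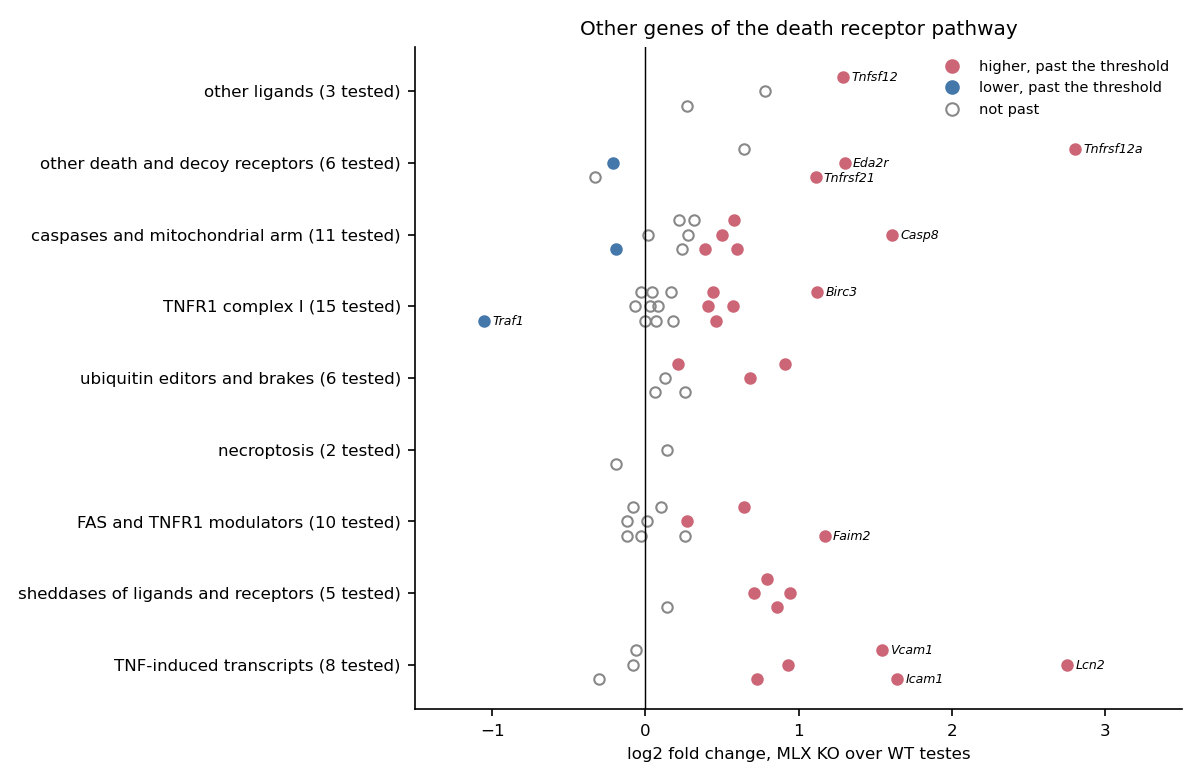
Log2 fold change of MLX KO over WT testes for the 66 tested genes of the 9 pathway lists, 1 point a gene. Red points were higher and blue points lower at an edgeR adjusted p under 0.05, and open grey points did not pass. Called genes that changed by at least 1 on the log2 scale are named. Most called genes lie to the right of 0, and Traf1 is the farthest to the left.

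The levels of cell type markers differed between the groups in the same libraries. Their counts are read beside the 24.8% of all genes tested that were higher and the 20.6% that were lower. All 8 Leydig cell markers rose, and their summed level was 865 to 885 CPM in WT and 1860 to 2450 CPM in MLX KO testes, with Insl3, a hormone gene of Leydig cells, holding the most counts. All 9 Sertoli cell markers rose, with sums of 336 to 343 and 485 to 576 CPM and with Aard the most abundant. Of 12 macrophage markers 11 had a row and were tested, of which 10 rose and Aif1, the most abundant, fell. Among the 10, Cx3cr1 passed narrowly (edgeR adjusted p = 0.0494), and its MLX KO replicate 3 lay below all WT values. The macrophage sum was 458 to 475 CPM in WT and 472 to 513 CPM in MLX KO testes. Without Aif1, a choice made after its value was seen, it was 87.1 to 92.6 and 189 to 193 CPM, 2.10-fold higher. Endothelial markers summed to 42.4 to 52.7 and 57.1 to 63.6 CPM, with 2 of 7 higher and Vwf the most abundant. The 1 B cell marker of 4 that was tested did not pass the threshold, and the B cell sum was 0.896 to 2.03 CPM in WT and 1.88 to 3.07 CPM in MLX KO testes.

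The germ cell lists differed by stage. Of 6 spermatogonium markers 2 rose, beside 24.8% of all genes tested. Their sums were 104 to 110 CPM in WT and 127 to 137 CPM in MLX KO testes, with Uchl1 the most abundant. Of 7 spermatocyte markers 5 fell (1150 to 1200 against 1040 to 1080 CPM, Piwil1 the most abundant). All 6 round spermatid markers fell (1570 to 1590 against 1300 to 1380 CPM, led by Tssk2), and so did all 6 elongating spermatid markers (17200 to 18100 against 9820 to 12100 CPM, led by Prm2). Every Sertoli, Leydig and germ cell marker of these lists had enough counts to be tested. The Leydig sum was 2.51-fold and the Sertoli sum 1.59-fold higher, and the macrophage sum 1.05-fold, or 2.1-fold without Aif1. Single markers spread widely, from 1.5-fold (Hsd3b1) to 3.81-fold (Insl3) for Leydig cells. For macrophages they ran from 0.794-fold (Aif1) to 3.46-fold (Lyz2), and for endothelial cells from 0.819-fold (Egfl7) to 4.13-fold (Kdr). Beside these, Fas was 3.97-fold, Tnfrsf1a 2.24-fold, Cflar 1.54-fold and Ripk1 1.27-fold higher, and Tnfrsf1b 2.85-fold as a ratio of mean CPM. The part of the marker shifts in the changes of the death receptor genes was not tested.

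**Figure D5:**
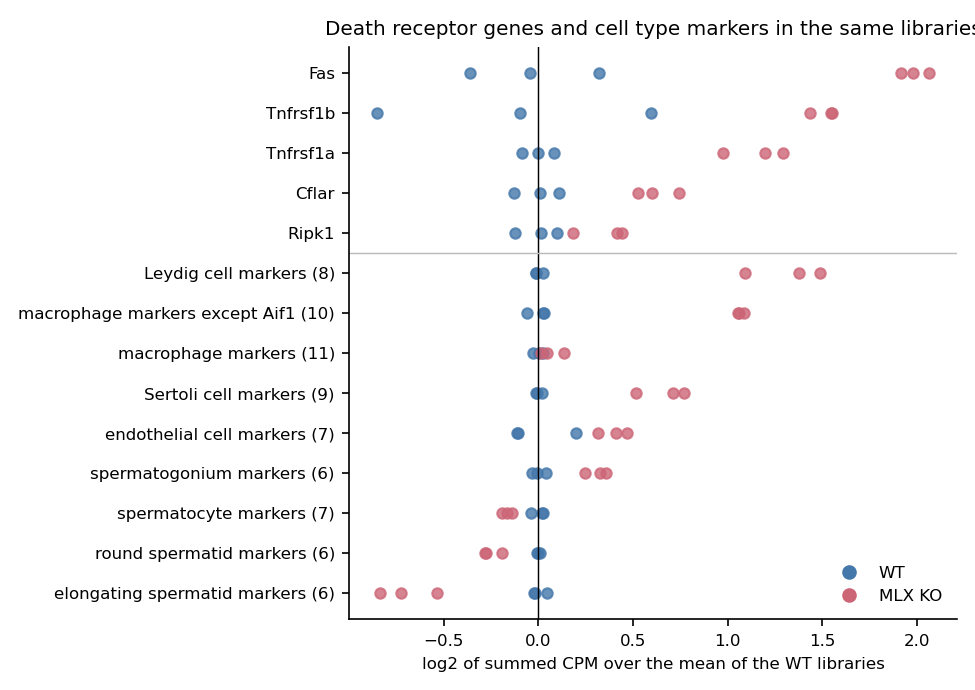
Log2 of the level in each library over the mean of the 3 WT libraries, for the 5 death receptor genes that rose (top) and for summed cell type markers (bottom, number of genes in parentheses), with WT in blue and MLX KO in red. Leydig, Sertoli and macrophage markers other than Aif1 lie to the right of 0 in the MLX KO libraries and spermatid markers to the left. The sum of all 11 macrophage markers lies close to 0 in the MLX KO libraries (1.05-fold).

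Across the 6 libraries, the genes whose log2 CPM was most like that of Fas were Tubb3 (Pearson r = 0.997), Ogdhl (0.996), Casq2 (0.995), Bst2 (0.995) and Rtn4rl1 (0.994). All 5 were higher in MLX KO testes, by 0.56 to 1.16 on the log2 scale. Genes chosen by their r with Fas tend to share its direction. High values are common in this design, because 2 groups of 3 that stand apart favour a high r between genes that rise together. Of 13866 genes compared, 1965 had r of at least 0.9. Among the 10 genes themselves, Fas had r = 0.97 with both Tnfrsf1a and Cflar, 0.91 with Tnfrsf1b, 0.85 with Ripk1, 0.28 with Tnfrsf10b and −0.83 with Fasl, over 6 libraries that share the same contrast.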

How the data were processed

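RNA was extracted with Trizol from the whole testes of 3 WT males and 3 MLX KO males and sequenced paired-end. The authors aligned reads to mm10 with TopHat and deposited raw counts per gene symbol. The counting tool, annotation and strand setting are not given in the sources used here. The deposited table also holds the authors' own comparison (base mean, log2 fold change, its error, statistic, p and adjusted p), which was not used. Of 17933 rows, 2 repeated another row. Chromatin immunoprecipitation samples were not analysed here.

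Counts were tested with edgeR 4.0.16 in R 4.3.3 (quasi-likelihood, WT against MLX KO, trimmed mean of M values, filterByExpr with a minimum count of 10, equal to 0.55 CPM, Benjamini-Hochberg over 14640 genes). The SE is the size of the log2 fold change over the square root of F. DESeq2 1.42.0, other scalings, other filters, the replicate block and leaving out each library were alternatives. Levels per kb used RefSeq exon lengths, and 17881 symbols matched by current or older name. Ratios used an offset of 0.5 counts. Replicate numbers mark littermate pairs per the labels and the study's methods. Deviations from the group means of same-numbered libraries correlated at 0.145, 0.0363 and 0.121, and those of other combinations at most at 0.0330. Library totals ran from 16674678 to 19742726 counts. All scripts that fit across genes were tested on simulated data.

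The members and lists were chosen with earlier results of these data known. Named were all 10 members, at most 4 called genes a pathway list by size of change, list genes at or under 3 counts in a group, Casp8, Ripk3, Mlkl, the 5 genes most like Fas, the most abundant marker of each list and Mlx. Genes named beside these were chosen after their values were seen. Some list genes are not reported here by name.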

Additional observations from a re-analysis of the deposited data

How the results depend on the processing

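Under 14 alternatives, the log2 fold changes of Fas, Tnfrsf1a, Tnfrsf1b and Cflar kept their direction and stayed past the threshold, and those of Fasl and Tradd stayed short of it. Leaving out 1 library at a time gave 1.83 to 2.16 for Fas and 4 to 5 of the 10 genes higher with 0 lower. Tnfrsf10b ranged from −0.00425 (without MLX KO replicate 1, a reversed sign) to 0.15 in these fits and never passed the threshold. Over all genes, leaving out 1 library gave 2978 to 3990 higher and 2134 to 3405 lower, beside 3634 and 3015. DESeq2 with the replicate block (littermate pairing) gave 2249 higher. In edgeR the pairing changed no call among the death receptor and pathway genes. Library size as the only scaling gave 1268 lower, with 80.8% of calls higher beside 54.7%. Of the pathway genes it left 1 lower, and leaving out 1 library gave 25 to 32 higher and 2 to 5 lower, the 5 without MLX KO replicate 1. An offset of 2 counts gave a difference of 2.10 for the ratio of Fas to Fasl. The cause of these shifts was not tested. Tnf was at or under 3 counts in every library, and Fas had at most 8 counts in a WT library.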
